A study of Rattus norvegicus with 4 samples.

Results

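The genes described here are 9 genes of blood coagulation and of fibrinolysis, the breakdown of fibrin clots, in NR8383 cells, an alveolar macrophage line established from a rat lung lavage. They were chosen by name, as Plau, Plaur, Plat, Serpinb2, F3, F7, F10, F13a1 and Thbs1. All 9 were matched to the array through the RefSeq accession of a probe, which gave 10 probes of the 45598 on the array, and 9 of the 16581 genes that could be named. The cells had been incubated for 4 h with carbon black, as the commercial carbon nanoparticle powder Printex 90, at 0.9 cm² of particle surface per cm² of culture, as the dose unit was read here. The 4 arrays came from 4 biological replicates of this 1 group, taken after 20 passages, each on its own 1-colour array, and cells incubated without particles were not analysed here. The values below are therefore levels in exposed cells and their spread between replicates, and no effect of carbon black was computed.

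Coagulation begins when tissue factor, encoded by F3, meets factor VIIa in plasma, and the complex activates factor X, whose active form cuts prothrombin to thrombin. Thrombin then forms fibrin, which factor XIII cross-links. Fibrin is dissolved by plasmin, which the urokinase (Plau) and tissue-type (Plat) activators release from plasminogen, and serpins such as Serpinb2 stop these activators. Macrophages are known to hold urokinase on their surface through its receptor, encoded by Plaur, and to produce tissue factor, the A subunit of factor XIII and thrombospondin 1 in some states of activation.

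Only Plaur and F10 gave signal well above background on all 4 arrays, 2 of the 9 genes (22.2%), against 7952 of 16581 named genes (48.0%). Plau reached this mark on 1 array, which makes 3 of the 9 with it on at least 1 array against 56.0% of named genes, and Plat, Serpinb2, F3, F7, F13a1 and Thbs1 did not reach it. "Well above background" is a mark that the scanner software sets for a spot whose signal exceeds its background by a set margin. A gene with this mark is called detected below, and without it only a bound can be given for a level. A weaker mark, for signal that is positive and significantly above background, was set on all arrays for Plau as well, so that 3 genes carried it, against 56.5% of named genes.

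The sequences around the transcription start are shown for the pair of genes detected on all arrays and for a pair detected on none, Serpinb2 and F7. By coordinate, F7 follows F10 on chromosome 16 in the GRCr8 annotation with a single uncharacterised locus, LOC134482530, between them. Both genes lie on the minus strand, so F7 is upstream of F10 in the direction of transcription. The windows, from RefSeq on GRCr8, run from 250 bases before to 50 after the annotated start, and 7 of the 9 genes had an entry. Capitals mark matches on either strand to the AP-1 motif TGANTCA, bound by FOS and JUN dimers, and to GAGGAA, a purine-rich core bound by the macrophage factor PU.1. The motifs do not overlap each other in these windows.
Plaur, chr1:89181113-89181412 (plus strand): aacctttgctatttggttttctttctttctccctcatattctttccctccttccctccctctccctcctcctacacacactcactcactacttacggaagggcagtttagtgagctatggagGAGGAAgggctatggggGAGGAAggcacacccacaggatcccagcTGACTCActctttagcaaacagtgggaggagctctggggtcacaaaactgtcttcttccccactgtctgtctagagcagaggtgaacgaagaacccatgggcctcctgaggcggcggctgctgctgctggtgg
F10, chr16:83190231-83190530 (minus strand): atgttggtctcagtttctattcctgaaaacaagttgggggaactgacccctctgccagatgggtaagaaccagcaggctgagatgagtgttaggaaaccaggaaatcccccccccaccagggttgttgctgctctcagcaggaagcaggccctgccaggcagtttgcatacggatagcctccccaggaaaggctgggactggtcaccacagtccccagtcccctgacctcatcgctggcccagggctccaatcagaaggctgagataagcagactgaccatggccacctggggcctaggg
Serpinb2, chr13:24055771-24056070 (plus strand): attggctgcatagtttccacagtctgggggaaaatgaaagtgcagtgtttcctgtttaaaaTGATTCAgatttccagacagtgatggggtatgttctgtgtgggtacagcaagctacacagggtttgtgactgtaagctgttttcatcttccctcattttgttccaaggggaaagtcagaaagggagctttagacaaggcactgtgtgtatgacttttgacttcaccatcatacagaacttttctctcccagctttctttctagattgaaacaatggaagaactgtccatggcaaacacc
F7, chr16:83202689-83202988 (minus strand): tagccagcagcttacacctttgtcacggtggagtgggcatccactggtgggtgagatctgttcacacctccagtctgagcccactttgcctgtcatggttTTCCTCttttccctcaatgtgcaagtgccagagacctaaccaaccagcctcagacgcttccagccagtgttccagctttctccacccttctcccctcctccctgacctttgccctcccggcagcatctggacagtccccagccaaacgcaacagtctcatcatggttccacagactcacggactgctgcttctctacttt
The AP-1 letters stood in 2 of the 7 windows, those of Plaur, from position -83 to -77, and Serpinb2, from -189 to -183, and in 7.33% of 33469 promoter windows of the same length. The PU.1 letters stood in 4 of the 7, with 2 matches in Plaur and 1 each in F7, F13a1 and Thbs1, and in 27.6% of all windows. The TATA box letters TATAAA stood in none of the 7 and in 14.2% of all windows. The GC box letters GGGCGG stood in 2 of the 7 and in 33.1% of all windows, and the CCAAT box letters CCAAT in 3 of the 7 and in 37.5%, neither of them put in capitals here. A match describes the letters alone and was not related to the measured levels.

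Plaur, the receptor that binds urokinase at the cell surface, was measured by 2 probes with 1 spot each, and both were well above background on every array. Processed intensities, in the scanner's linear units, of the brighter probe were 303, 369, 232 and 273 on replicates 1 to 4. The median pixel brightness of its spots was 353, 385, 252 and 291 on the same arrays, over a local background of 32, 29, 30 and 30. Scaled to each array's 75th percentile over probes on the log2 scale, so that 0 is that percentile, the level of this probe was 1.48, 1.98, 1.87 and 2.10, or 1.86 ± 0.27 (mean ± SD, n = 4). Replicate 1 was lowest and replicate 4 highest, a 1.54-fold range.

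The dimmer Plaur probe had intensities of 174, 253, 141 and 156 on replicates 1 to 4, and levels of 0.67, 1.43, 1.15 and 1.29, or 1.14 ± 0.33 (SD, n = 4). It too was lowest on replicate 1, by 0.46 below its own mean, where the brighter probe was 0.38 below its own. On replicate 3 both probes lay 0.01 above their means. The highest array differed, replicate 2 for the dimmer probe and replicate 4 for the brighter one. The levels of different probes cannot be set against each other, since each probe has its own binding strength.

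F10, the gene of coagulation factor X, was the only one of the 4 coagulation factor genes that was detected on any array. Its single spot had intensities of 209, 233, 139 and 150 on replicates 1 to 4, and the median pixel brightness was 246, 256.5, 171.5 and 181.5 over a local background of 29, 29, 30 and 31. The levels were 0.94, 1.32, 1.13 and 1.23, or 1.15 ± 0.16 (SD, n = 4), within a 1.30-fold range. Replicate 1 was again lowest and replicate 2 highest.

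The spread of Plaur and F10 between replicates did not pass the threshold. Each gene's variance was tested against the variance expected at its mean level, fitted on 14925 genes and unnamed transcripts with limma. After Benjamini-Hochberg adjustment 69 (0.462%) passed as wider than expected, and neither Plaur nor F10 was among them. That count ran from 0 to 356 over the alternative settings, so it is not a firm count of variable genes. Plaur had an SD of 0.27 against 0.148 expected at its level (unadjusted p = 0.0924, adjusted p = 0.987, limma, n = 4), and its variance was 3.31 times the expected one, a higher ratio than in 91.7% of tested genes. F10 had an SD of 0.16 against 0.159 expected (unadjusted p = 0.438, adjusted p = 0.987, limma, n = 4), a higher ratio than in 58.6% of them. The test finds few such genes with 4 arrays, so neither spread is shown to be ordinary. The median SD over all tested genes was 0.161. The software's own estimate of the error of a single spot was between 10.0% and 10.4% of the signal for these 3 probes.

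Replicate 1 held the lowest level of Plaur and F10, as it did for 39.5% of all tested genes, against 13.4%, 14.7% and 32.5% for replicates 2, 3 and 4. With quantile normalization these shares were 35.3%, 18.0%, 17.1% and 29.6%, and the lowest level of both Plaur probes and of F10 was still on replicate 1. Replicate 1 also held the highest level of 21.9% of tested genes. With quantile normalization it held the highest level of 31.0%, the largest such share of the 4 arrays. The cause of the low levels of Plaur and F10 on replicate 1 was not tested.

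**Figure D1:**
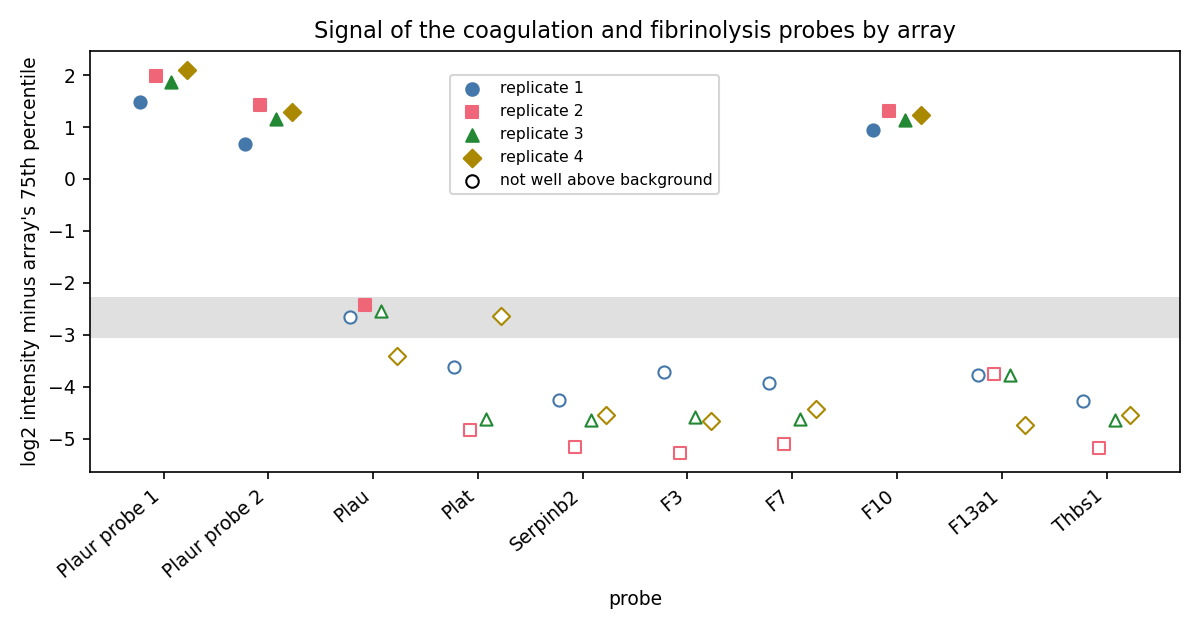
Level of each of the 10 probes on the 4 arrays, as log2 processed intensity minus the array's 75th percentile; filled symbols are well above background, open ones are not, and the grey band spans the lowest marked spot of each array, from -3.05 to -2.29. Both Plaur probes and F10 lie above the band on all arrays and Plau and Plat reach into it; heights cannot be compared between probes.

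Plau, the gene of urokinase, lay at the edge of detection. Its spot had processed intensities of 17.4, 17.3, 10.95 and 6.04 on replicates 1 to 4, over which the software gave errors of 5.72, 3.16, 2.81 and 2.87. Only replicate 2 was marked well above background. Replicate 1 had nearly the same intensity without the mark. The lowest intensity of any marked spot was 22.3 on replicate 1 and 11.3, 10.8 and 12.1 on replicates 2, 3 and 4, and 99% of the 308 negative control spots lay below 27.1 on replicate 1, against 7.40, 4.95 and 6.25 on the others. The level on replicate 2 was -2.43.

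Plat, the gene of tissue-type plasminogen activator, had intensities of 8.89, 3.28, 2.60 and 10.2 on replicates 1 to 4. The weaker mark was set on replicates 1, 2 and 4, and the strong mark on none. On replicate 4 the spot stood just under the lowest marked spot of that array, at 10.2 against 12.1, while on replicate 3 its background-subtracted signal was below 0, at -3.81.

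Serpinb2, which encodes plasminogen activator inhibitor type 2 and is known as a strongly inducible gene of activated monocytes and macrophages, had no signal by either mark. Its background-subtracted signal was below 0 on every array, at -0.98, -3.82, -0.64 and -2.65 on replicates 1 to 4. The small positive intensities of 5.69, 2.62, 2.57 and 2.73 in the files are values that the software puts in place of such signals. Its level is given only as an approximate upper bound of -2.29, -3.05, -2.56 and -2.40, that of the lowest marked spot on each array. An unmarked spot can lie slightly above the lowest marked one, as Plau did on replicate 3.

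Thbs1, which encodes the matrix glycoprotein thrombospondin 1, had background-subtracted signals of -1.14, -3.18, -2.24 and 0.57 on replicates 1 to 4 and no mark of either kind. The same bounds hold for its level. The probe was matched through the accession of 1 of 2 curated transcripts of the gene.

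F7, the gene of factor VII, which the liver secretes into plasma, had background-subtracted signals of 7.06, 1.83, 0.04 and 1.90 on replicates 1 to 4. The weaker mark was set on replicate 1 only. F13a1, the gene of the A subunit of factor XIII, had background-subtracted signals of 9.08, 7.85, 5.28 and 1.05, with the weaker mark on replicates 1, 2 and 3. On the levels scale these 3 arrays read -3.76, -3.75 and -3.77, and replicate 4 read -4.74. None of these F7 or F13a1 values was well above background, so they are not measured levels. The bounds given for Serpinb2 hold for both genes.

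F3, the gene of tissue factor, was printed as 10 spots of 1 probe, which shows the error within an array directly. Its level was not well above background on any array, yet the spots were uneven on replicate 1. There the 10 intensities ran from 4.45 to 30.2 with a median of 5.30, and 2 spots were marked well above background and 4 carried the weaker mark. On replicate 2 they ran from 2.22 to 2.72, and on replicate 4 from 2.39 to 2.77, with no mark at all. On replicate 3, 9 of the spots were at the replaced values and 1 reached 9.22, with the weaker mark and a mark as an outlier among its repeats.

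The raised spots were few and partly the same. The spot in row 221 and column 131 was the highest of the 10 on replicate 1, at 30.2, and on replicate 3, at 9.22. It had 2.55 and 2.58 on replicates 2 and 4. The other 3 raised spots of replicate 1, with 26.8, 21.1 and 7.16, lay in rows 99, 129 and 101. The local background beside the 4 raised spots was 29, 40, 36 and 36, in the order given here, against 26 to 30.5 beside the other 6 on that array. The part of the local background in these values was not tested. The SD between the 10 spots of F3 on replicate 1 was 1.14 on the log2 scale, wider than in 91.7% of the 327 probes with 10 spots and no detection on that array, of which 31 (9.48%) also had at least 2 marked spots.

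**Figure D2:**
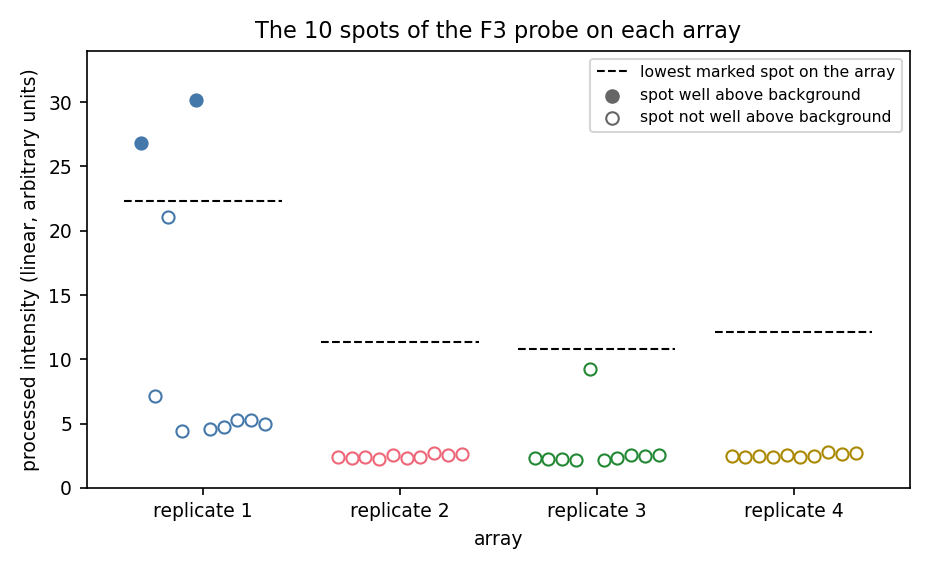
Processed intensity (linear, arbitrary units) of the 10 spots of the F3 probe on each of the 4 arrays, in the same spot order; filled points are well above background and dashed lines show the lowest marked spot of the array. On replicate 1 spots run from 4.45 to 30.2, while on replicates 2 and 4 all lie between 2.22 and 2.77.

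The 9 genes were then set beside 61 other genes of coagulation, fibrinolysis and their receptors, of which 57 had a probe. All 4 arrays detected 25 of them (43.9%), and 7 were seen on some arrays and 25 on no array, against the 48.0% of all named genes. Their median SD between replicates, over the 27 tested, was 0.161, the same as the median of all tested genes.

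Some genes whose products can bind or clear plasminogen and its activators at the cell surface were detected beside Plaur. The share of the whole list, though, was near that of all named genes. Of 18 measured genes of the plasminogen system, 8 (44.4%) were detected on all arrays, against 48.0% of all named genes. Another 3 were detected on 1 array and 7 on none. Plg, the gene of plasminogen itself, a protein made mainly by the liver, had levels of -0.29, 0.16, -0.01 and 0.12 on replicates 1 to 4. Among genes whose products can bind plasminogen at the cell surface, the annexin A2 gene Anxa2 had a level of 8.54 ± 0.13 (SD, n = 4). Its partner S100a10 had 6.13 ± 0.12, the enolase gene Eno1 7.69 ± 0.16 and the plasminogen receptor gene Plgrkt 1.01 ± 0.19. RNA levels do not show how much of a product is at the surface. Lrp1, whose product takes up complexes of protease and inhibitor, had 2.56 ± 0.03, and Mrc2, the gene of a collagen uptake receptor that associates with the urokinase receptor, 2.16 ± 0.15.

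Genes of the list without detected signal included Serpine2, Serpinb8, Cpb2, Vtn, Klkb1 and A2m. Serpinf2, Serpini1 and Hpn were detected on 1 array each, at -2.59 and -2.87 on replicate 2 for the first pair and -2.13 on replicate 3 for Hpn. The intracellular serpin gene Serpinb9, an inhibitor of granzyme B, had levels of 0.21, 0.33, 0.23 and -0.51 by 1 of its 2 probes, and its other probe was detected on no array. Serpinb6 had no matched probe.

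Among other clotting factor genes, signal was seen for von Willebrand factor, factor VIII and several genes that process clotting factors. Of 15 measured genes, 8 (53.3%) were detected on all arrays, against 48.0% of all named genes. Fgb was detected on 2 arrays, and F2, F9, F12, Fga, Kng1 and Vkorc1l1 on none. F8, whose active product is the cofactor that speeds the activation of factor X, had a level of 2.89 ± 0.14 (SD, n = 4) by 1 of its 2 probes, while the other probe was detected on no array. Vwf, which encodes the carrier of factor VIII, had 4.09 ± 0.04 and a second probe that was also detected on all arrays. Lman1 and Mcfd2, whose products carry factors V and VIII out of the endoplasmic reticulum, had -0.31 ± 0.15 and 2.13 ± 0.17. Ggcx, the gamma-carboxylase that vitamin K dependent factors such as factor X require, had 2.51 ± 0.18, and Vkorc1, which recycles the vitamin, 4.19 ± 0.19.

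Detection differed between the probes of the fibrinogen genes, which does not show a difference in level between the genes. The gamma chain gene Fgg was well above background on all arrays, at -1.24 ± 0.28 (SD, n = 4), the beta chain gene Fgb was so on replicates 2 and 3, at -2.57 and -1.85, and the alpha chain gene Fga on none. The transglutaminase gene Tgm2, which encodes a relative of factor XIII, had a level of -0.70 ± 0.30. F5, F11 and F13b had no matched probe.

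Of 11 measured anticoagulant genes, 4 (36.4%) were detected on all arrays, against 48.0% of all named genes. Tfpi, the inhibitor of the tissue factor pathway, which binds factor Xa, had a level of 1.45 ± 0.12 (SD, n = 4) by 1 of its 2 probes, and the other probe was detected on no array. Anxa5, which binds phosphatidylserine, had 6.30 ± 0.23. The antithrombin gene Serpinc1 had -1.49 ± 0.15 by 1 of its 2 probes, and the other probe was detected on 3 arrays. Procr, the protein C receptor gene, was well above background on replicates 2, 3 and 4, at -1.21, -1.63 and -1.40. Thbd, Proc, Pros1, Tfpi2, Serpind1 and Serpina10 were detected on no array.

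Serpina5, an inhibitor of activated protein C and of urokinase, was the widest of the tested genes of this system. Its levels were 1.18, -1.47, -2.05 and -1.996 on replicates 1 to 4, so that replicate 1 stood above the other 3, in contrast to Plaur and F10. The SD of 1.53 stayed short of the threshold of 0.05 (adjusted p = 0.0551, limma, n = 4), and over the alternative settings the adjusted p lay between 2.6e-07 and 0.993. Without replicate 1 it was 0.993. Of the 27 genes tested, 0 passed after adjustment with limma and 1, Serpina5, had an unadjusted p under 0.05, against 5.07% of all tested genes.

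Thrombin and factor Xa act on cells through receptors, of whose 4 genes 0 were detected on all arrays. The share over all named genes was 48.0%, and a list of 4 genes is short for such a comparison. F2r, the gene of the main thrombin receptor, was well above background on replicate 2 only, at -1.14, by 1 of its 2 probes, and F2rl1, F2rl2 and F2rl3 on none.

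In the thrombospondin family list, 5 of 9 measured genes (55.6%) were detected on all arrays, against 48.0% of all named genes. Receptors of thrombospondin 1 were among them, while Thbs1, measured by 1 spot, had no mark. The scavenger receptor gene Cd36 had a level of 6.94 ± 0.12 (SD, n = 4), Cd47 5.33 ± 0.15 and the heparan sulfate proteoglycan gene Sdc4 1.78 ± 0.22. Tgfb1, whose latent product thrombospondin 1 can activate, had 4.11 ± 0.05. Among the family's other genes, Thbs3 had 0.79 ± 0.16 by 1 of its 2 probes, Comp was well above background on replicate 4 only, at -1.29, and Thbs2 and Thbs4 on none. Ltbp1 was detected on no array either.

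**Figure D3:**
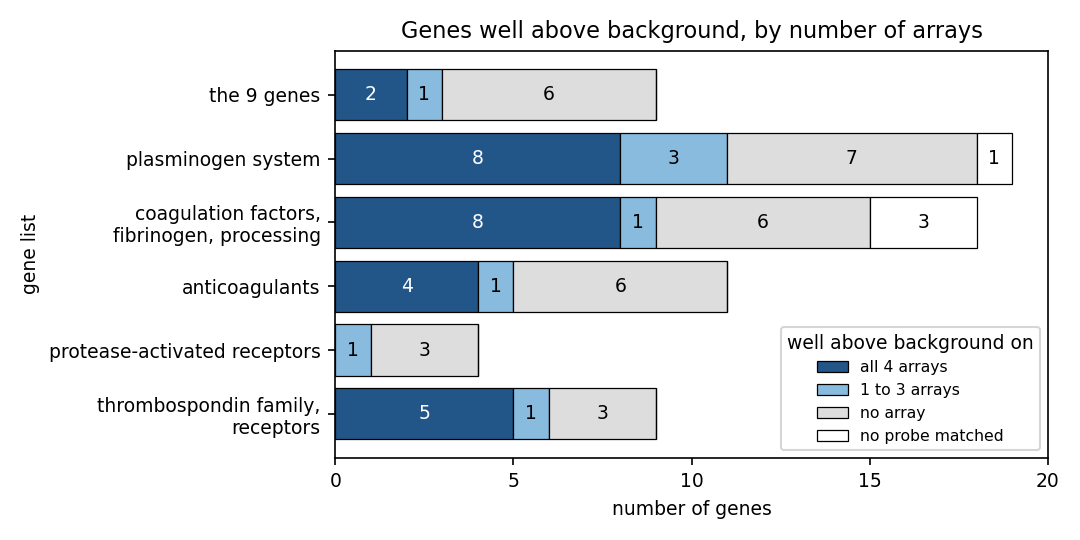
Number of genes in each list by the arrays on which they were detected (all 4, 1 to 3, or none), with genes that had no matched probe in white. Of the 9 genes, 2 (22.2%) were detected on all arrays, against 48.0% of all named genes. The counts were 8 of 18 measured genes (44.4%) of the plasminogen system and 0 of 4 protease-activated receptors.

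**Figure D4:**
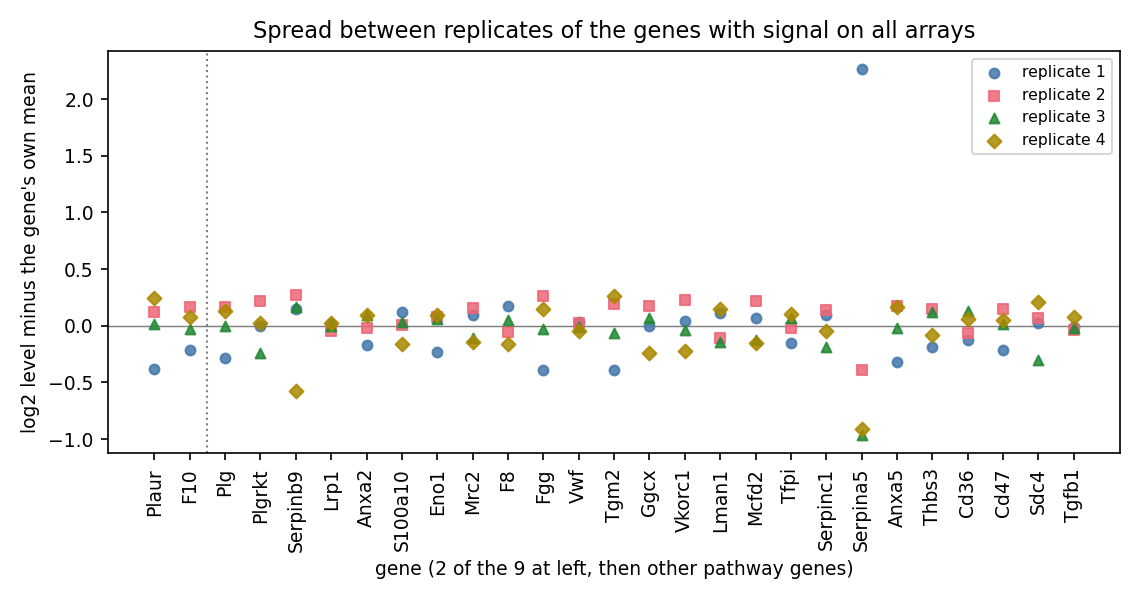
Deviation of each array's log2 level from the gene's own mean, for Plaur and F10 (left of the dotted line) and 25 other genes of the system with signal on all 4 arrays. Most points lie within 0.5 of 0, while Serpina5 ranges more widely. Its levels, before its mean of -1.08 is taken off, run from 1.18 on replicate 1 to -2.05 on replicate 3.

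The label of the cells as macrophages was checked against marker genes. Of 10 macrophage markers 9 (90%) were detected on all arrays, against 48.0% of all named genes. These were Cd68, Ptprc, Spi1, Csf1r, Lyz2, Mrc1, Siglec1, Fabp4 and Fcgr1a, and Marco was detected on none. Many clotting factors are made by the liver, by platelets or by endothelium, so markers of these cells were read beside them. Of 8 hepatocyte markers 0 were detected on all arrays, and Tf on replicate 2 only, at -1.14. Alb, Apoa1, Ttr, Serpina1, Ahsg, Apoh and Cyp2e1 were detected on no array. Of 5 measured platelet and megakaryocyte markers Gp9 was detected on all arrays, at -1.45 ± 0.32 (SD, n = 4), Pf4 on replicates 2 and 3, and Ppbp, Gp1ba and Gp1bb on none. Of 8 endothelial markers Vwf and Pecam1 were detected on all arrays, Cdh5 on replicates 2 and 4, and Kdr, Tek, Cldn5, Tie1 and Emcn on none. Vwf is also among the clotting factor genes above, so it is not an independent marker beside them. Dcn among 6 fibroblast markers and Ager among 8 alveolar epithelial markers were the only ones of their lists detected, both on all arrays.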

How the data were processed

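RNA of 4 biological replicates of NR8383 cells exposed to carbon black was hybridised to 1-colour Agilent arrays, with groups and replicate numbers taken from the labels. Cells had been seeded in 25 cm² flasks for 48 h, and 100 ng of RNA was labelled with Cy3, per the labels' protocols. The deposited files hold intensity per spot on a linear scale, computed with Agilent Feature Extraction 11.0.1.1, per the submitters' processing notes. Per the file headers, the software had subtracted background and removed spatial trends on each array, and arrays were not normalized to each other. The software's marks for detection, 0 or 1 per spot, are other values in the deposited files.

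From these, control spots and spots marked non-uniform (0 to 7 per array) were left out, log2 intensities of a probe's spots were averaged, and the 75th percentile over an array's probes was then taken off. Between 37.5% and 40.9% of probes were well above background on an array, a mark needed on at least 50% of a probe's spots. No spot was saturated. Accessions were matched to RefSeq genes of GRCr8, which named 21109 probes. The array design names the older build rn4, so gene coordinates of GRCr8 were not used beyond the order of genes and the promoter windows. A gene's level is that of its brightest probe, and a gene counts as detected on an array if any of its probes is.

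Genes detected on at least 2 arrays were tested with a one-sided F test of each gene's variance against the trended prior of squeezeVar in limma 3.58.1 (R 4.3.3), with Benjamini-Hochberg adjustment over all of them and a threshold of 0.05. On simulated data the test recovered a minority of the genes whose spread had been widened. A gene that did not pass may therefore still vary more than expected. With the smaller widening the test made more false than true calls, so a gene that passed may be a false call. With 4 arrays each SD is imprecise, and the replicates are biological per the series design. By the rule for named genes, genes of the pathway lists are named, with a level for those detected on at least 1 array, except 1 gene that is counted in its list but not reported here. Of the marker lists, counts and the markers detected on at least 1 array are given. The 9 genes, the gene lists and the tests were chosen with earlier results of these data known. With 4 replicates of 1 group, no likeness of pattern between genes was computed. The files hold no mean spot signal, so the normexp alternative used the median signal.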

Additional observations from a re-analysis of the deposited data

Results flagged for a closer look

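Of 35 sets of levels examined for a single array far from the other 3, 3 stood out by Dixon's criterion at the 95% level. It uses the ratio of the gap beside the extreme value to the whole range. Levels not well above background were included. Chance flags about 1 in 20 such groups. F13a1 had its lowest level on replicate 4, at -4.74 against -3.77 to -3.75 on the other arrays (ratio 0.973). None of these F13a1 values was well above background, and the one on replicate 4 carried no mark at all. They are not measured levels, so the ratio describes the values in the files, not a measured difference. Serpinb9 was lowest on replicate 4, at -0.51 against 0.21 to 0.33 (ratio 0.855). Eno1 was lowest on replicate 1, at 7.45 against 7.75 to 7.78 (ratio 0.908), and its other 2 probes were also lowest there.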

How the results depend on the processing

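No paired analysis was possible because all samples belong to 1 group. The 2 of 9 genes detected on all arrays stayed 2 in 8 of 9 alternatives, leaving out each replicate included (2 to 2), and were 3 with the weaker detection mark. The 25 other pathway genes became 20 to 31 over 8 alternatives (25 to 26 leaving out a replicate). The 5 markers of other cell types were 8 with the weaker mark (5 to 5 leaving out a replicate). The zero of the level scale is set by the scaling. With the 75th percentile over detected probes the mean level of Plaur was -1.66 and of F10 -2.37, over all spots -0.50 and -1.21, and with normexp background correction 1.30 and 0.79. With the mean of its detected probes Plaur had 1.495. Leaving out a replicate gave 1.77 to 1.98 for Plaur and 1.101 to 1.226 for F10. The count of 69 genes with wide spread was 0 with the percentile over detected probes, 0 with that over all spots, 1 with quantile normalization, 42 with cyclic loess, 237 with normexp, 207 with a robust prior, 0 where the prior had no trend, 356 where dim probes were kept, and 27 to 164 leaving out a replicate (27 without replicate 2, 164 without replicate 3 and 43 without replicate 4). The cause was not tested. Plaur and F10 did not pass under any of the 16 alternatives (adjusted p from 0.642 to 0.993 for Plaur and from 0.933 to 0.995 for F10, limma). Serpina5 passed with normexp, without the filter, with genes detected on all arrays, with a robust prior and without replicate 3. Spots left out as population outliers were an alternative chosen after seeing the data. Detection depends on signal over background. Replicate 1 had the highest negative controls and the brightest lowest marked spot, while the fewest named genes were detected on replicate 4, 8351 against 8370 on replicate 1.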
